A study of Arabidopsis thaliana with 4 samples.

Results

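The genes described here are 43 nuclear genes for the enzymes that fix carbon dioxide in the chloroplast and for those that recycle the by-product of Rubisco's reaction with oxygen. They were picked by locus identifier: 4 Rubisco small subunit genes, Rubisco activase, 16 genes of Calvin cycle enzymes, 3 CP12 genes, and 19 genes for photorespiratory enzymes and transporters. All 43 were among the 27554 genes with an identifier in the deposited count table, and all 43 passed the filter on low counts, as did 18737 genes in all. The measurement was Ribo-seq, which counts ribosome footprints, the mRNA fragments that translating ribosomes protect from RNase, here from whole 6-day-old seedlings of Arabidopsis thaliana. One group was wild type (WT, n = 2 libraries) and the other was line 5 (#5 in the labels), labelled as overexpressing ClpD in the wild type (n = 2 libraries), an overexpression that the series' design text calls constitutive. The sources used here do not give the promoter that drives ClpD, and with 1 line the effects of ClpD and of other differences of that line cannot be told apart. Nothing in the labels says that the 2 libraries of a group are separate cultures, so each p-value rests on a spread between libraries that could be technical. Footprint counts follow mRNA level and ribosome occupancy together, and fewer cells of a type cannot be told apart from fewer footprints per cell.

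In the Calvin cycle Rubisco adds carbon dioxide to ribulose bisphosphate, the product is reduced to triose phosphate, and aldolases, phosphatases and transketolase rebuild the acceptor. When Rubisco takes oxygen instead, phosphoglycolate forms, and photorespiration returns its carbon through enzymes of the chloroplast, peroxisome and mitochondrion, where glycine is decarboxylated and ammonium is released. Rubisco is built from a plastid-encoded large subunit and nucleus-encoded small subunits, and nearly all other enzymes of both pathways are made in the cytosol and imported into an organelle.

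Total counts ranged from 27260818 to 42291527 per library. ClpD itself, listed as ERD1, had 167 and 175 CPM in WT and 3112 and 3302 CPM in line 5, where CPM is the usual depth-scaled count, with each library's total corrected by TMM, the trimmed mean of gene ratios. The tissue is labelled whole seedlings, and 9 or 10 of 13 root markers had at most 10 counts in each library, and PLT1 and IRT1 had none in any. PYK10, a beta-glucosidase of roots and hypocotyls, made up most of the root list's summed level of 840 to 1062 CPM in WT and 1006 to 1020 CPM in line 5, and of the 4 root markers tested 1 was called lower and 1 higher. Summed levels of the 6 guard cell and epidermis markers were 127 to 132 CPM in WT and 155 to 165 CPM in line 5, with 2 of 6 called higher. ATML1 made up most of that sum, with 81.8 and 83.7 CPM in WT and 111 and 115 CPM in line 5. In 4 of the 6 the log2 fold change, line 5 over WT, was below 0, as in 49.8% of all genes tested. The 5 vascular markers summed to 235 to 302 CPM in WT and 189 to 211 CPM in line 5, with 3 of 5 called lower, and the 7 markers of seed reserves and early seedling metabolism to 177 to 196 CPM and 171 to 215 CPM, with 0 called by edgeR, 3 lower at an unadjusted p under 0.05 and 2 called lower by DESeq2. Most of the seed list's sum was PCK1, with 169 and 145 CPM in WT and 158 and 208 CPM in line 5. The list's median log2 fold change was -0.97. In 5 of its 7 markers both line 5 libraries lay below both WT libraries, as in 33.4% of all genes tested. Of all genes tested, edgeR called 8.72% lower and 6.72% higher. At an unadjusted edgeR p under 0.05, 18.7% of all genes were lower, and DESeq2 called 12.2% lower. Whether the differences in these markers bear on the values below was not tested.

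Footprints on Calvin cycle and photorespiratory genes were fewer in both line 5 libraries than in either WT library. The 43 genes held 10.7% and 11.6% of all counts in WT replicates 1 and 2, and 9.15% and 7.94% in replicates 1 and 2 of line 5. In the edgeR quasi-likelihood test with Benjamini-Hochberg adjustment over all 18737 genes, 14 of the 43 fell and 0 rose, against 8.72% of all genes tested that were called lower and 6.72% called higher. The median log2 fold change, line 5 over WT, was -0.51 for the 43 genes and 0.002 for all genes tested, and 41 of the 43 values were below 0, against 49.8% of all genes. In TMM-scaled CPM, 41 genes had both line 5 libraries below both WT libraries, a separation that 33.4% of all genes tested show in that direction. In 1 gene both lay above, as in 34.7% of all genes. At an unadjusted edgeR p under 0.05, 29 of the 43 were lower and 0 higher, against 18.7% and 17.1% of all genes tested. DESeq2 called 22 of the 43 lower and 0 higher, against 12.2% of all genes called lower by that tool. The authors' deposited table lists 22 of the 43 with a negative log2 fold change and an FDR under 0.05, against 7.50% of all 27554 genes. That base includes genes that did not pass the filter used here, so this share is not on the base of the others. The authors' log2 fold changes of the 43 genes had a median of -0.26, the same as with scaling by total counts alone. For the small subunit gene RBCS2B the authors' log2 fold change was -1.29, also the value with that scaling. Its FDR of 2.72e-13 lay near the DESeq2 adjusted p of 3.58e-13 found here. The authors' count may thus take sign and FDR from different scalings.

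The size of the shift and the separation of the libraries depend on the scaling. Scaling by total counts alone moved the median log2 fold change of all genes to 0.24 and that of the 43 genes to -0.26. In that fit 37 of the 43 values were below 0 and 10 genes were called lower, against 6.54% of all genes called lower. It called 1 of the 43 higher, against 17.9% of all genes. On log2(FPKM + 1), limma called 10 of the 43 lower and 1 higher, against 5.99% and 15.6% of all genes. In FPKM, GDCH had 326 and 329 in WT and 340 and 347 in line 5, so both line 5 libraries lay above both WT libraries. RBCS1A had 26255 and 27010 FPKM in WT and 26854 and 24075 FPKM in line 5. Its groups overlapped on that scale, as did those of PGK1, RPE and others. The TMM-scaled values below therefore give each gene's change relative to the bulk of genes. With either line 5 library left out, calls became rare over all genes and not only among the 43, so effect sizes alone are given here. RBCS2B had a log2 fold change of -1.70 without line 5 replicate 1 and -1.37 without line 5 replicate 2. In these fits the spread came from the WT pair alone, and the lone line 5 library was assumed to vary like it. The SD of log2 CPM differences between replicates, over all genes, was 0.512 in WT and 0.344 in line 5. The median remained at -0.54 without replicate 1 and -0.48 without replicate 2 of line 5. It was -0.58 without WT replicate 1 and -0.40 without WT replicate 2.

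**Figure D1:**
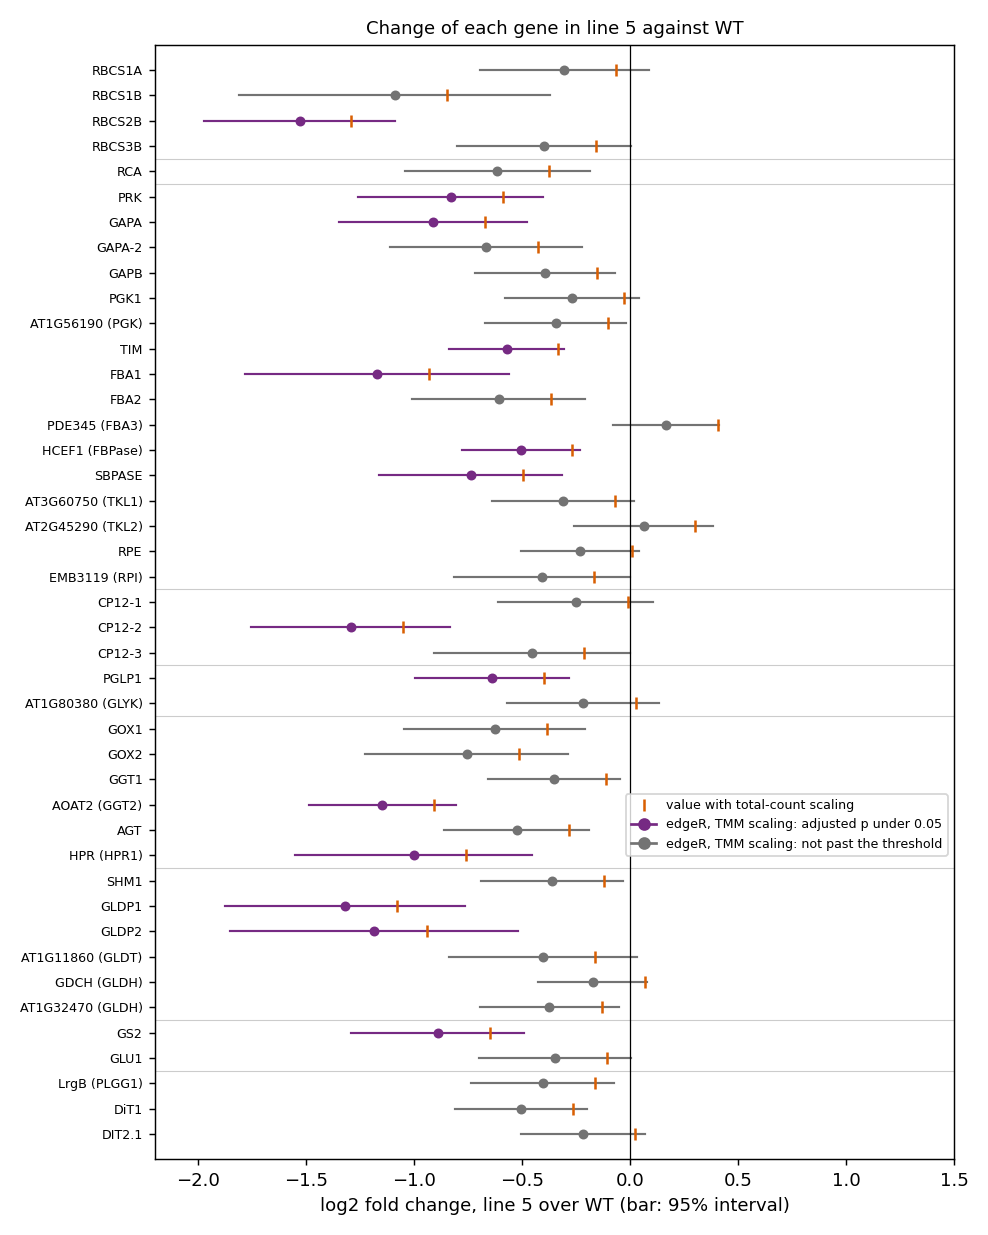
Log2 fold change of each of the 43 genes, line 5 over WT (x axis), with the 95% interval of the edgeR fit as a bar. Purple marks the 14 genes past an adjusted p of 0.05, grey the others, orange ticks the value with total-count scaling, and grey lines separate the roles; 41 of the 43 points lie left of 0.

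The 43 genes also varied together between replicates. Set against each gene's WT mean on the log2 scale, their medians were -0.10 and 0.10 in replicates 1 and 2 of WT, and -0.47 and -0.54 in replicates 1 and 2 of line 5. WT replicate 2 was the lower WT library for 1 of the 43 genes, and line 5 replicate 2 was the lower line 5 library for 40 of the 43, against 50.1% of all genes tested. The replicates of line 5 differed by -0.61 on the log2 scale for FBA1 at one end and by 0.32 for CP12-1 at the other. The 43 genes are thus not independent of each other within a library.

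**Figure D2:**
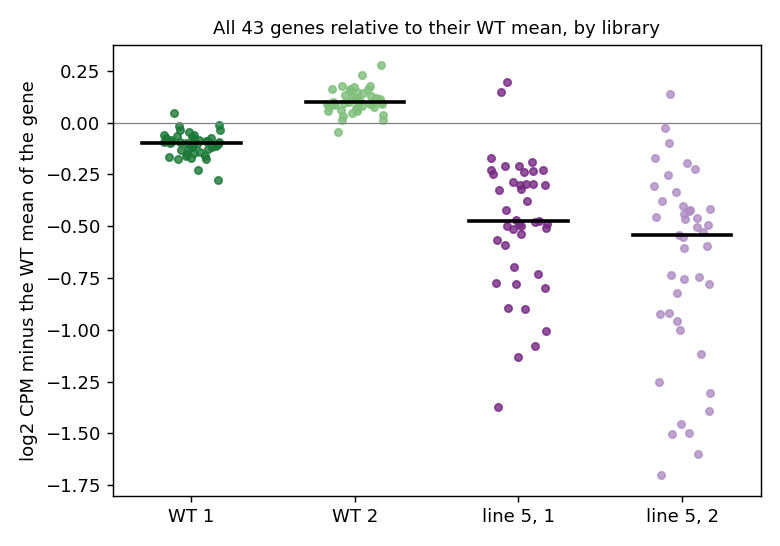
Log2 CPM of each of the 43 genes minus its WT mean (y axis) in each of the 4 libraries (x axis), 1 point per gene, with the median as a black bar. The medians are -0.10 and 0.10 in WT and -0.47 and -0.54 in line 5. By this centring the WT points of a gene mirror each other, so the spread of points cannot be compared between WT and line 5.

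The Rubisco small subunit genes had some of the highest footprint densities in these seedlings. On the authors' FPKM scale, which divides by gene length, RBCS1A held the highest mean WT value of all genes in the table, with 26255 and 27010 FPKM in the WT libraries. RBCS3B followed with 22073 and 23698 FPKM, so the levels of these 2 genes did not overlap in WT. RBCS2B (11908 and 12641 FPKM) lay below Rubisco activase (12904 and 13737 FPKM), also without overlap, and RBCS1B (6350 and 8706 FPKM) was the lowest of the 4.

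Of the 4 small subunit genes, 1 fell in line 5, against 8.72% of all genes tested called lower. RBCS2B (AT5G38420) had 7228 and 8223 CPM in WT and 2977 and 2369 CPM in line 5. Both line 5 libraries were far below both WT libraries, with a log2 fold change of -1.53 (SE 0.172, edgeR adjusted p = 0.0163). RBCS1B (AT5G38430) had 3855 and 5663 CPM in WT and 2686 and 1780 CPM in line 5. Its groups did not overlap either, but the replicates of each group were wide apart, and its log2 fold change of -1.09 (95% interval -1.81 to -0.37) missed the threshold (edgeR adjusted p = 0.0603). RBCS3B (AT5G38410) had 13398 and 15416 CPM in WT and 11645 and 10199 CPM in line 5, a log2 fold change of -0.40 (95% interval -0.80 to 0.005). The most abundant copy, RBCS1A (AT1G67090), had 15853 and 17480 CPM in WT and 14374 and 12609 CPM in line 5, with a log2 fold change of -0.30 (95% interval -0.70 to 0.09). Neither of these 2 copies was called, and with total-count scaling their values were -0.06 for RBCS1A and -0.16 for RBCS3B.

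RBCS1B, RBCS2B and RBCS3B are immediate neighbours in the RefSeq gene table of assembly TAIR10.1, and the family's coding sequences are very alike, so the way the authors' counting assigned shared reads can move counts between copies, and the sources used here do not give it. The 4 genes together held 3.84% and 4.16% of all counts in WT and 3.40% and 2.96% in line 5, with exact binomial 95% intervals, which cover counting error only, under 0.02 percentage points wide. These give 4.00% ± 0.224 for WT and 3.18% ± 0.314 for line 5 (mean ± SD, n = 2 each), with no overlap. The two-sided permutation test, exact over the 4 libraries, gave p = 0.333, and no smaller value is possible with 2 libraries per group. RBCS1A alone held 1.51% and 1.55% of all counts in WT and 1.54% and 1.38% in line 5, so its groups overlapped on this scale. The 3 neighbouring genes summed into 1 entry had a log2 fold change of -0.77 and were not called (edgeR adjusted p = 0.0513).

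Within the small subunit footprints the mix of copies differed between the groups. RBCS2B made up 17.9% and 17.6% of them in WT and 9.40% and 8.79% in line 5. RBCS1B made up 9.56% and 12.1% in WT and 8.48% and 6.60% in line 5. RBCS1A went the other way, from 39.3% and 37.4% in WT to 45.4% and 46.8% in line 5, and so did RBCS3B, from 33.2% and 33.0% to 36.8% and 37.8%. For each of the 4 copies the libraries of the groups did not overlap (the same exact permutation test gave p = 0.333 for each). In TMM-scaled CPM, 33.4% of all genes tested separate with line 5 lower and 34.7% with line 5 higher. The 4 shares are parts of a whole, so they are not independent. These shares do not depend on the scaling between libraries.

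Footprints on the plastid gene rbcL, which encodes the large subunit, were lower relative to the small subunit genes in line 5. The rbcL level was 3803 and 8331 CPM in WT and 1390 and 1574 CPM in line 5. There were 9.43 and 17.8 rbcL counts per 100 small subunit counts in WT and 4.39 and 5.84 in line 5. The log2 ratio of rbcL to the 4 small subunit genes differed by -1.36 between the groups, with no overlap (p = 0.333 in the same exact permutation test). The WT libraries differed widely, and the difference was -0.90 without WT replicate 2 and -1.82 without WT replicate 1. Cycloheximide, the inhibitor in the lysis buffer, is known to act on cytosolic and not on plastid ribosomes. Whether the inhibitor bears on the difference between the groups was not tested.

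**Figure D3:**
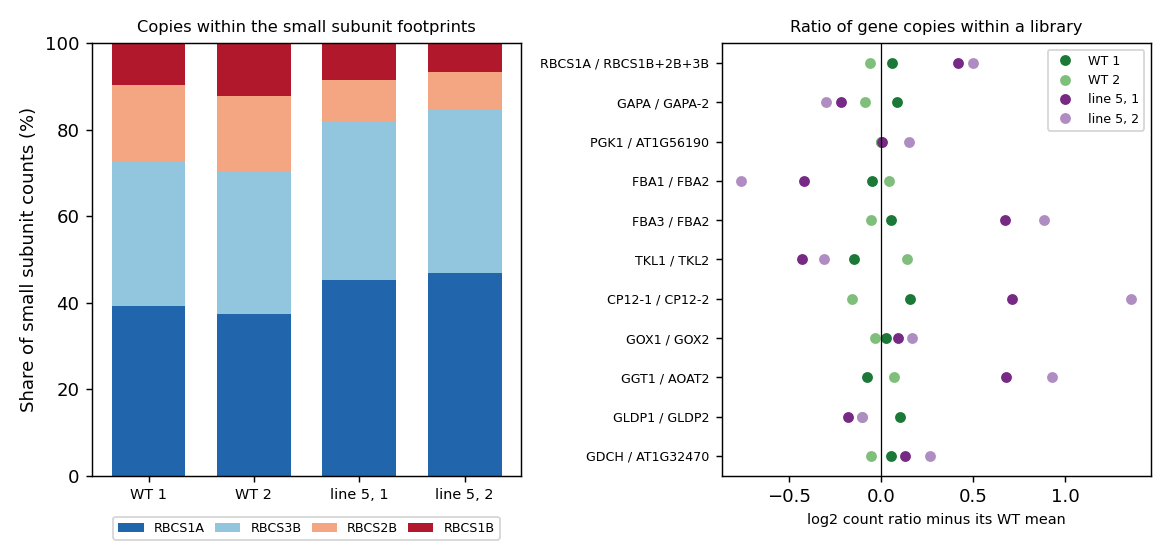
Left, share of each small subunit gene in the summed counts of the 4 genes (y axis, percent) for each library; RBCS2B falls from near 18% to near 9%. Right, log2 count ratio of 11 pairs of genes for the same protein or activity minus the WT mean of that ratio (x axis), 1 point per library; CP12-1 over CP12-2 stands farthest from 0, where its ratio differs between the groups by 1.03.

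Rubisco activase (RCA, AT2G39730), the ATPase that frees Rubisco's active site of bound sugar phosphates, had 19251 and 21932 CPM in WT and 14557 and 12329 CPM in line 5. Its groups did not overlap, with a log2 fold change of -0.62 (95% interval -1.04 to -0.19) that missed the threshold in edgeR (adjusted p = 0.0664) and passed in DESeq2 (adjusted p = 0.00448).

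Of the 16 genes of Calvin cycle enzymes, 6 fell and 0 rose (median log2 fold change -0.46; 8.72% of all genes tested were called lower). In the reductive step, phosphoglycerate kinase and glyceraldehyde phosphate dehydrogenase turn Rubisco's product into triose phosphate. The dehydrogenase subunit gene GAPA (AT3G26650) had 2384 and 2639 CPM in WT and 1512 and 1157 CPM in line 5, a log2 fold change of -0.91 (SE 0.170, edgeR adjusted p = 0.0327). Its second copy GAPA-2 (AT1G12900) had 1105 and 1380 CPM in WT and 865 and 699 CPM in line 5, and GAPB (AT1G42970), the subunit with the regulatory tail, 1925 and 2144 CPM in WT and 1626 and 1473 CPM in line 5. Neither was called, with log2 fold changes of -0.67 and -0.39 (edgeR adjusted p = 0.0611 and 0.0941), and GAPA and GAPA-2 summed into 1 entry fell by 0.83 (edgeR adjusted p = 0.0389). The kinase gene PGK1 (AT3G12780) had 1284 and 1457 CPM in WT and 1167 and 1108 CPM in line 5 and was not called, at -0.27 (95% interval -0.58 to 0.04). The second plastid kinase gene, AT1G56190, had -0.35 and was not called.

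Triose phosphates are interconverted and joined by an isomerase and by aldolase. The plastid isomerase gene TIM (AT2G21170) had 363 and 394 CPM in WT and 261 and 248 CPM in line 5, a log2 fold change of -0.57 (SE 0.104, edgeR adjusted p = 0.0314). Of the 3 plastid aldolase genes, 1 fell, against 8.72% of all genes tested called lower. FBA1 (AT2G21330) had 3708 and 4464 CPM in WT and 2189 and 1436 CPM in line 5, a log2 fold change of -1.17 (SE 0.240, edgeR adjusted p = 0.0384) in which the line 5 replicates were far apart. FBA2 (AT4G38970), the main aldolase by level with 4786 and 5044 FPKM in WT, had 6038 and 6827 CPM in WT and 4606 and 3830 CPM in line 5, a log2 fold change of -0.61 that was not called by edgeR (adjusted p = 0.0598) and was called lower by DESeq2 (adjusted p = 0.00594). The third, FBA3 (listed as PDE345, AT2G01140), was the only one of the 43 genes with both line 5 libraries above both WT libraries in TMM-scaled CPM. It had 155 and 162 CPM in WT and 182 and 175 CPM in line 5 (log2 fold change 0.17, 95% interval -0.08 to 0.41, not called), and with total-count scaling it was called higher (log2 fold change 0.41, edgeR adjusted p = 0.0396).

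The 2 bisphosphatases make the cycle's sugar phosphate steps irreversible and are switched on in the light through thioredoxin. Both fell, against 8.72% of all genes tested called lower. SBPASE (AT3G55800), specific for sedoheptulose bisphosphate, had 1634 and 1872 CPM in WT and 1179 and 923 CPM in line 5, a log2 fold change of -0.74 (SE 0.165, edgeR adjusted p = 0.0455). HCEF1 (AT3G54050), the chloroplast fructose bisphosphatase, had 905 and 964 CPM in WT and 674 and 641 CPM in line 5, a log2 fold change of -0.51 with a small spread in both groups (SE 0.107, edgeR adjusted p = 0.0403). Phosphoribulokinase, the enzyme that makes Rubisco's acceptor, also fell. PRK (AT1G32060) had 2102 and 2600 CPM in WT and 1442 and 1203 CPM in line 5, a log2 fold change of -0.83 (SE 0.167, edgeR adjusted p = 0.0376). With WT replicate 2 left out, SBPASE and HCEF1 lost their call (edgeR adjusted p = 0.0656 and 0.0727). TIM, HCEF1 and SBPASE also lost theirs with total-count scaling (edgeR adjusted p = 0.0608, 0.0993 and 0.0542).

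The enzymes that shuffle carbon between these steps were not called. The main transketolase gene TKL1 (AT3G60750) had 2844 and 3260 CPM in WT and 2500 and 2417 CPM in line 5 (log2 fold change -0.31, 95% interval -0.64 to 0.02). The second, TKL2 (AT2G45290), was the gene with the lowest WT level of the 43 at 5.27 and 4.61 FPKM. In TMM-scaled CPM it was the only gene whose groups overlapped, with 12.5 and 11.7 CPM in WT and 13.4 and 11.9 CPM in line 5. In FPKM its line 5 libraries, at 6.37 and 5.78, both lay above both WT libraries. The epimerase gene RPE had a log2 fold change of -0.23 and the ribose phosphate isomerase gene EMB3119 of -0.41, neither of them called. RPE had 0.0079 with total-count scaling, and EMB3119 had -0.22 without WT replicate 2.

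CP12 proteins are small linkers that bind phosphoribulokinase and glyceraldehyde phosphate dehydrogenase into an inactive complex in the dark. Of the 3 CP12 genes, 1 fell, against 8.72% of all genes tested called lower. CP12-2 (AT3G62410) had 543 and 690 CPM in WT and 280 and 223 CPM in line 5, a log2 fold change of -1.30 (SE 0.180, edgeR adjusted p = 0.0221). CP12-1 (AT2G47400) had 600 and 612 CPM in WT and 453 and 565 CPM in line 5, a log2 fold change of -0.25 (95% interval -0.61 to 0.11) that was not called and that came to -0.10 without line 5 replicate 1 and -0.42 without line 5 replicate 2. Line 5 replicate 2, the lower line 5 library for most of the 43 genes, was the higher one for CP12-1. CP12-3 (AT1G76560) was near the bottom in level at 7.68 and 7.55 FPKM in WT, and its log2 fold change of -0.45 was not called. The log2 ratio of CP12-1 to CP12-2 went from 0.14 and -0.17 in WT to 0.69 and 1.34 in line 5.

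**Figure D4:**
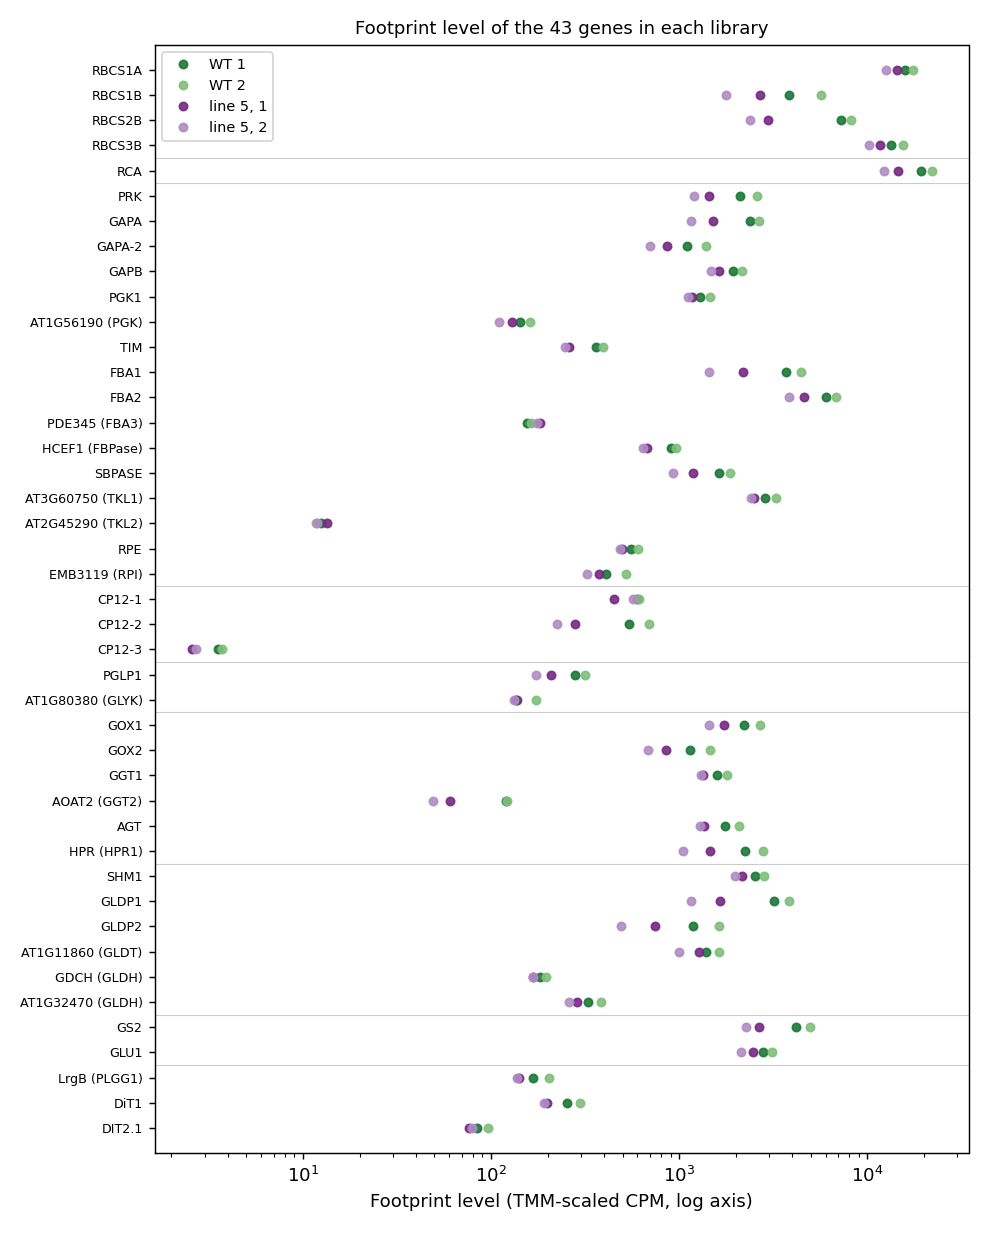
Footprint level of each gene in each library, in TMM-scaled CPM on a log axis (x axis), with the 43 genes grouped by role (y axis). In 41 genes both line 5 points lie left of both WT points (as in 33.4% of all genes tested), in FBA3 they lie to the right, and in TKL2 the groups overlap. CPM is not divided by gene length, so levels are to be compared within a gene.

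Among the 19 photorespiratory genes 6 fell and 0 rose (median log2 fold change -0.51), against 8.72% of all genes tested called lower. In TMM-scaled CPM, each of the 19 had both line 5 libraries below both WT libraries, as in 33.4% of all genes tested. In the chloroplast, phosphoglycolate phosphatase opens the pathway. PGLP1 (AT5G36700) had 278 and 316 CPM in WT and 208 and 173 CPM in line 5, a log2 fold change of -0.64 (SE 0.139, edgeR adjusted p = 0.0428). A second locus, AT5G36790, is listed with identical counts in all 4 libraries, so the values of the 2 loci cannot be told apart and are 1 measurement. The call of PGLP1 was lost without WT replicate 2 (edgeR adjusted p = 0.0562) and with total-count scaling (edgeR adjusted p = 0.0660). AT1G80380, known in Arabidopsis as the glycerate kinase that closes the pathway, had 138 and 173 CPM in WT and 135 and 132 CPM in line 5 and was not called (log2 fold change -0.22, 95% interval -0.57 to 0.13), with -0.04 without WT replicate 2 and -0.37 without WT replicate 1.

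In the peroxisome glycolate is oxidised, glyoxylate is turned into glycine by aminotransferases and hydroxypyruvate is reduced to glycerate. All 6 genes of these steps had an unadjusted edgeR p under 0.05 with a lower level in line 5, as did 18.7% of all genes tested, and 2 of the 6 fell after adjustment. HPR (AT1G68010), the hydroxypyruvate reductase, had 2233 and 2804 CPM in WT and 1465 and 1050 CPM in line 5, a level in line 5 of 0.499 times that in WT (SE 0.214 on the log2 scale, edgeR adjusted p = 0.0413). AOAT2 (AT1G70580), the minor of the 2 glutamate:glyoxylate aminotransferase genes, had 120 and 122 CPM in WT and 60.2 and 48.9 CPM in line 5, a log2 fold change of -1.15 (SE 0.132, edgeR adjusted p = 0.0169). It differed by under 2 CPM between the WT replicates. The main aminotransferase gene, GGT1 (AT1G23310), had 1591 and 1789 CPM in WT and 1345 and 1299 CPM in line 5, with a log2 fold change of -0.35 (95% interval -0.66 to -0.05) that was not called. The log2 count ratio of GGT1 to AOAT2 went from 3.73 and 3.88 in WT to 4.48 and 4.73 in line 5.

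The 2 glycolate oxidase genes lie next to each other, are close in sequence, and were just outside the threshold. GOX1 (AT3G14420) had 2197 and 2698 CPM in WT and 1723 and 1444 CPM in line 5, and GOX2 (AT3G14415) had 1139 and 1456 CPM in WT and 855 and 681 CPM in line 5. Their log2 fold changes were -0.63 and -0.76 (edgeR adjusted p = 0.0620 and 0.0536), and summed into 1 entry they had -0.67 (edgeR adjusted p = 0.0604). The serine:glyoxylate aminotransferase gene AGT (AT2G13360) had -0.53 (edgeR adjusted p = 0.0566). DESeq2 called 5 of these 6 peroxisomal genes lower, GGT1 being the exception, against 12.2% of all genes tested.

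In the mitochondrion the glycine decarboxylase complex and serine hydroxymethyltransferase turn glycine into serine. Of the 6 genes of these steps, 2 were called lower, against 8.72% of all genes tested. Both encode the P-protein, the decarboxylating subunit. At an unadjusted edgeR p under 0.05, 4 of the 6 were lower, as were 18.7% of all genes tested. GLDP1 (AT4G33010) had 3198 and 3813 CPM in WT and 1656 and 1152 CPM in line 5, a log2 fold change of -1.32 (SE 0.217, edgeR adjusted p = 0.0270). GLDP2 (AT2G26080) had 1180 and 1619 CPM in WT and 741 and 489 CPM in line 5, a log2 fold change of -1.18 (SE 0.260, edgeR adjusted p = 0.0439). Summed into 1 entry the 2 copies fell by 1.28 (edgeR adjusted p = 0.0310).

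The other members for these steps had smaller values. The T-protein gene AT1G11860 had 1387 and 1619 CPM in WT and 1279 and 993 CPM in line 5, a log2 fold change of -0.40 (95% interval -0.84 to 0.03), and -0.23 without line 5 replicate 2. The H-protein gene GDCH (AT2G35370) had 181 and 196 CPM in WT and 168 and 167 CPM in line 5, at -0.17 (95% interval -0.43 to 0.08), and AT1G32470, the second H-protein gene, was at -0.37. SHM1 (AT4G37930), the serine hydroxymethyltransferase, had 2515 and 2818 CPM in WT and 2165 and 1979 CPM in line 5, at -0.36 (95% interval -0.69 to -0.04). None of these 4 was called. The interval of GLDP1, -1.87 to -0.77, lay outside that of GDCH and that of SHM1, but the difference between subunits was not itself tested.

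Ammonium freed by glycine decarboxylation is taken up again in the chloroplast by glutamine synthetase and glutamate synthase. GS2 (AT5G35630), the chloroplast glutamine synthetase, had 4189 and 4970 CPM in WT and 2659 and 2277 CPM in line 5, a log2 fold change of -0.89 (SE 0.156, edgeR adjusted p = 0.0294). GLU1 (AT5G04140), the ferredoxin-dependent glutamate synthase, had 2791 and 3094 CPM in WT and 2478 and 2142 CPM in line 5 and was not called (log2 fold change -0.35, 95% interval -0.70 to 0.003). The 3 transporters of the chloroplast envelope were not called either. LrgB (AT1G32080), known as the plastid glycolate and glycerate transporter PLGG1, had -0.41, the oxoglutarate and malate exchanger DiT1 (AT5G12860) had -0.51, and the glutamate and malate exchanger DIT2.1 (AT5G64290) had -0.22. DiT1 was the closest to the threshold, with 253 and 298 CPM in WT and 198 and 190 CPM in line 5 (edgeR adjusted p = 0.0511).

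Gene copies of 1 enzyme or protein were also compared as a ratio within each library, which does not depend on the scaling. Of 11 such pairs, 4 differed between the groups by at least 0.5 on the log2 scale, namely CP12-1 over CP12-2 by 1.03, GGT1 over AOAT2 by 0.80, FBA3 over FBA2 by 0.78 and FBA1 over FBA2 by -0.59. Without line 5 replicate 2 the difference of FBA1 over FBA2 was -0.41. RBCS1A over its 3 relatives differed by 0.46, TKL1 over TKL2 by -0.37 and GAPA over GAPA-2 by -0.26. The other 4 pairs, GOX1 over GOX2, PGK1 over AT1G56190, GLDP1 over GLDP2 and GDCH over AT1G32470, differed by 0.13, 0.08, -0.14 and 0.20. With 1 library left out, some of these values moved by over 1.5 times. Without line 5 replicate 2, PGK1 over AT1G56190 came to 0.0066 and GDCH over AT1G32470 to 0.13. Without WT replicate 1, GAPA over GAPA-2 came to -0.17 and GLDP1 over GLDP2 to -0.04. Without WT replicate 2, TKL1 over TKL2 came to -0.22 and GLDP1 over GLDP2 to -0.24, and PGK1 over AT1G56190 came to 0.15 without line 5 replicate 1. No pair's groups overlapped, although for GLDP1 over GLDP2 replicate 2 of WT and replicate 2 of line 5 both stood at 1.24. How often ratios of other genes separate the groups was not computed. For single genes in TMM-scaled CPM, 33.4% of all genes tested separate with line 5 lower and 34.7% with line 5 higher. The pairs of FBA1 and FBA3 share FBA2 and so are not independent. Each pair had p = 0.333 in the exact permutation test, before and after adjustment over the 11 pairs.

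Genes of neighbouring pathways are given by list, to be read against the 8.72% of all genes tested called lower and 6.72% called higher. Of 11 genes for Rubisco assembly and repair, 1 fell and 0 rose (median log2 fold change 0.0002), a share near that of all genes. The gene was RbcX2, an assembly chaperone of the large subunit, with 149 and 153 CPM in WT and 106 and 88.0 CPM in line 5 (log2 fold change -0.64, edgeR adjusted p = 0.0366). In this list DESeq2 called 1 gene lower and 1 higher, against 2289 and 1591 of all 18737 genes tested. Of 10 genes of the chloroplast thioredoxin system, which switches Calvin cycle enzymes on in the light, 0 were called by edgeR and 0 by DESeq2, with 1 lower and 0 higher at an unadjusted p under 0.05 in edgeR (median -0.04). Its lowest p belonged to the reductase NTRC, at -0.31 (95% interval -0.56 to -0.06).

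Of 15 further photorespiratory genes, 3 fell and 1 rose (median log2 fold change -0.10), and 1 of the 3 was the PGLP1 duplicate. CAT2, the catalase that removes the peroxide made by glycolate oxidase, had 4547 and 5832 CPM in WT and 2253 and 1504 CPM in line 5, a log2 fold change of -1.47 (SE 0.248, edgeR adjusted p = 0.0280). The gene that rose was mtLPD2, a lipoamide dehydrogenase shared by several mitochondrial complexes, with 69.9 and 70.2 CPM in WT and 93.7 and 95.2 CPM in line 5 (log2 fold change 0.43, edgeR adjusted p = 0.0407). Of 21 genes for isoforms outside the Calvin cycle or photorespiratory nitrogen cycle, most of them cytosolic, 4 fell and 1 rose (median 0.01). The one that rose was the aldolase FBA6, with 106 and 127 CPM in WT and 273 and 267 CPM in line 5 (log2 fold change 1.21, SE 0.124, edgeR adjusted p = 0.0148). FBA7 fell by 1.09 and the non-phosphorylating glyceraldehyde phosphate dehydrogenase ALDH11A3 by 0.82.

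Of 12 genes for starch and sucrose synthesis and triose phosphate export, 3 fell and 0 rose (median log2 fold change -0.13). GBSS1, the starch synthase that makes amylose, had 524 and 613 CPM in WT and 176 and 91.6 CPM in line 5, a log2 fold change of -2.08 (SE 0.330, edgeR adjusted p = 0.0258). APE2, the triose phosphate translocator, fell by 0.58 and AT2G35840, a sucrose phosphatase, by 0.53. Of 6 carbonic anhydrases, enzymes that interconvert carbon dioxide and bicarbonate, 2 fell and 0 rose (median -0.71). BCA5 fell by 1.17 and CA2 by 1.01, while CA1 had -0.73 and was not called (edgeR adjusted p = 0.0555).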

How the data were processed

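The authors deposited 1 table for the series. By the file headers, each gene has, in every library, a count and an FPKM (fragments scaled by length and depth). Beside these stand group means of FPKM and, per the file headers, the authors' comparison with its log2 fold change, p-value and FDR. The submitters' processing notes name fastp, Bowtie2, STAR, RSEM and DESeq2, with TAIR10 as build, but no roles. The sources used here do not give strand use, footprint sizing or how shared reads were assigned. Deposited counts are whole numbers, and the authors' log2 column was used for comparison only.

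Here, 5 rows without a gene identifier (0.0145% to 0.0340% of counts) were left out. Counts were tested with edgeR 4.0.16 in R 4.3.3: filterByExpr with a minimum count of 10, TMM factors of 0.889 to 1.10, a quasi-likelihood fit on group, tested on both sides, with Benjamini-Hochberg adjustment and a threshold of 0.05. SE is the log2 fold change divided by the square root of F. A floor of 3 counts is 0.0660 to 0.124 CPM. Replicates were not duplicates of 1 library, with a chi-square of 39.0 (WT) and 25.7 (line 5) per degree of freedom between their counts. DESeq2 1.42.0, limma 3.58.1 on log2(FPKM + 1), other scalings and filters, each library left out, a replicate block and summed gene copies were alternatives. The fit was tested on simulated data.

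Members and gene lists were chosen with earlier results of these data known. All 43 genes may be named. Of other lists, at most 3 genes with the smallest p may be named, beside ERD1 and rbcL. PLT1, IRT1, PYK10, ATML1 and PCK1 were named after their values were seen. Symbols come from RefSeq (TAIR10.1), which held 27444 of 27554 identifiers. No coordinates or sequences are printed.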

Additional observations from a re-analysis of the deposited data

How the results depend on the processing

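The median of the 43 genes stayed below 0 in each of the 14 alternatives, from -0.58 to -0.26, but the count of calls did not hold. Against 14 genes called lower, there were 22 with DESeq2 and with no filter on low counts, and 0 to 24 with a library left out. In that same comparison 3 to 2904 of all genes were called lower and 25 to 2197 higher, against 1633 and 1260. Of all genes, DESeq2 called 2289 lower and the fit with no filter on low counts 1965. Total-count scaling and limma on FPKM called 3355 and 2927 of all genes higher and 1 and 1 of the 43, which was FBA3. The labels do not say what a replicate number shares. Across genes, the replicate difference of WT was only weakly related to that of line 5 (r = -0.12). With the replicate number as a block, edgeR called 2 of the 43 lower, RBCS2B and AOAT2, and 457 and 286 of all genes lower and higher. With crossed numbers as a block, chosen after seeing the data, it called 22 of the 43 lower, and 2067 and 1530 of all genes. Values that changed sign were not called in either form: RPE 0.0079 and 0.0081, AT1G80380 0.027 and 0.025, GDCH 0.067 and 0.067 and DIT2.1 0.022 and 0.023 with total-count scaling and limma on FPKM, and AT2G45290 (TKL2), which ranged from -0.025 without line 5 replicate 1 to 0.15 without replicate 2. The rest kept direction. The difference in the share of small subunit counts ranged from -1.04 to -0.60 percentage points with a library left out, and that of the log2 ratio of rbcL to them from -1.82 to -0.90. With 2 libraries a group, no permutation test could pass the threshold.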
